A study of Mus musculus with 68 samples.

Results

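The step from the 4-cell (4C) to the 8-cell (8C) stage was examined in mouse embryos made by somatic cell nuclear transfer (SCNT), in which the nucleus of a cumulus cell (CC), the cell type that surrounds the oocyte, replaces the chromosomes of the oocyte. The comparison used the 5 libraries labelled as SCNT 4C and the 6 labelled as SCNT 8C, 11 of the 68 libraries of the series, and covered all annotated genes. In both stages the recipient MII oocytes came from B6D2F1 hybrid females aged 8 to 10 weeks, and the donors were cumulus cells. The embryos were activated chemically and cultured in the same medium, and no embryo was injected or treated further. The labels name no difference between the libraries but stage and replicate number. Embryos that stop developing at 4C can be in the 4C pools but not in the 8C pools. Time in culture and the loss of such embryos therefore cannot be told apart here. The assay was Smart-seq2, which copies polyadenylated RNA from a few cells. According to the methods each library was made from 10 blastomeres, which takes at least 3 embryos at 4C or at least 2 at 8C, so a library pools embryos and does not show how embryos differ among themselves. Neither the labels nor the methods say which libraries came from the same collection. The p-values of the main gene fit rest on the spread between libraries within stages, pooled over all 53 SCNT libraries in 9 stages. They do not rest on 4C and 8C alone, and that spread may in part be technical.

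Between these stages a mouse embryo that has already started its own transcription clears the remaining oocyte RNA and the transient transcripts of the 2-cell (2C) stage, and turns on genes of the later preimplantation stages, a phase called mid-preimplantation gene activation. Toward the end of 8C the blastomeres flatten against each other (compaction) and acquire an outer and an inner face (polarity), and the position that follows from this feeds through the Hippo pathway into the choice between trophectoderm (TE), which forms placenta, and inner cell mass (ICM), which forms the embryo proper. Metabolism moves over the same period from pyruvate and lactate toward glucose.

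For orientation, the upstream DNA of the 3 genes of highest 8C level among the largest rises with a short factor motif is shown first, since their rise is described below. The stretches are the 250 bases before the RefSeq start on GRCm38.p6, read along the gene's strand, with capitals marking the motif found. Fbp2, with CACGTG, the E-box bound by MAX and its partners, is on the minus strand at chr13:62858401-62858650.
Fbp2: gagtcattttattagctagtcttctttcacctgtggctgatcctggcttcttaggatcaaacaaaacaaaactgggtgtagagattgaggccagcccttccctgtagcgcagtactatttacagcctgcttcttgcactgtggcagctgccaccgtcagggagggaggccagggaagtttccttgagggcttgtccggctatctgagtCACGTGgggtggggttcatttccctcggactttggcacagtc
Sox15, with GGGTGTGG, bound by KLF factors, is on the plus strand at chr11:69654787-69655036.
Sox15: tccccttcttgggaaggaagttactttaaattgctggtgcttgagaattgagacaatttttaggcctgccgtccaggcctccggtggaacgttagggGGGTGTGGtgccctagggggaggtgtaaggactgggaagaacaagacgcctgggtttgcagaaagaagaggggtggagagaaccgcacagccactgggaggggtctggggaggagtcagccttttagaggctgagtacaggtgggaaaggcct
Bhmt, with TCAAGGTCA, bound by NR5A2 and ESRRB, is on the minus strand at chr13:93637759-93638008.
Bhmt: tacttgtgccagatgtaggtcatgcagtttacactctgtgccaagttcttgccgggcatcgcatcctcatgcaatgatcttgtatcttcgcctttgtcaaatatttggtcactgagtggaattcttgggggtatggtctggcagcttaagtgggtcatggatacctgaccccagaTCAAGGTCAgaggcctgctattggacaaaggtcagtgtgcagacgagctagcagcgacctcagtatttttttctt
Searched on both strands over the 32851 upstream stretches of the RefSeq table, CACGTG occurred in 6.02%, GGGTGTGG in 3.2% and TCAAGGTCA in 0.387%, and the 3 motifs do not overlap each other in these stretches. A comparison of motif shares between genes that rose and all genes was void, because only 8897 of the 11867 genes tested (75%) matched a promoter by symbol. The matches describe letters and say nothing of binding.

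By the share of TPM on annotated genes, the libraries of 4C fell into sets. In 4C replicates 1 to 3 the annotated genes held 44 to 53.1% of the TPM of the loci assembled in that library, and in 4C replicates 4 and 5 they held 75.6 and 73.5%, whereas at 8C they held 76 to 84.4%. The stage means were 59.7 ± 14 (SD, n = 5) and 81.5 ± 3.15 (SD, n = 6), and the stages did not overlap (p = 0.002165 in an exact two-sided permutation of the 462 ways to split the libraries, the smallest p possible here, 0.006494 adjusted over 3 measures). Library depth is known only as aligned sequence, 2.36 to 2.99 gigabases at 4C and 2.89 to 3.42 at 8C (exact permutation p = 0.01299, adjusted p = 0.01948), and the number of genes at 1 TPM or more averaged 8889 ± 544 at 4C and 8858 ± 110 at 8C (exact permutation p = 0.9372). Pearson correlations of log2(TPM + 1) were 0.801 to 0.861 between 4C replicates 1 to 3 and 4C replicates 4 and 5, and 0.856 to 0.906 between 4C replicates 4 and 5 and the 8C libraries, ranges that overlap only from 0.856 to 0.861. Within 4C replicates 1 to 3 they were only 0.829 to 0.845. Replicate 3 correlated at 0.8546 and 0.8608 with replicates 4 and 5, above its 0.8402 and 0.845 with replicates 1 and 2. By expression, 4C replicates 1 to 3 were therefore not a uniform set. In 4C replicates 1 and 2, 22 and 16 genes with a median of at least 50 TPM in the other libraries were listed under 1 TPM, against 0 or 1 in each other library. The same measure split by replicate number at some other SCNT stages, with 30.4 to 51.8% in replicates 1 to 3 and 57.8 to 61.8% in replicates 4 to 6 at L2C and 74.6 to 78.9% and 89.2 to 89.4% in the ICM. At morula it did not (87.1 to 89.7% and 87.3 to 88.4%). The labels name no batch, and the part of such sets in the differences below was not tested beyond the fits within each set and the fit with the set as a term, given below. Many results below are therefore given with the value without 4C replicates 1 to 3. Where no such value is given, it may still differ or the call may be lost. Leaving those libraries out gives 2 libraries against 6, with the spread still pooled over the other SCNT stages as well.

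**Figure D1:**
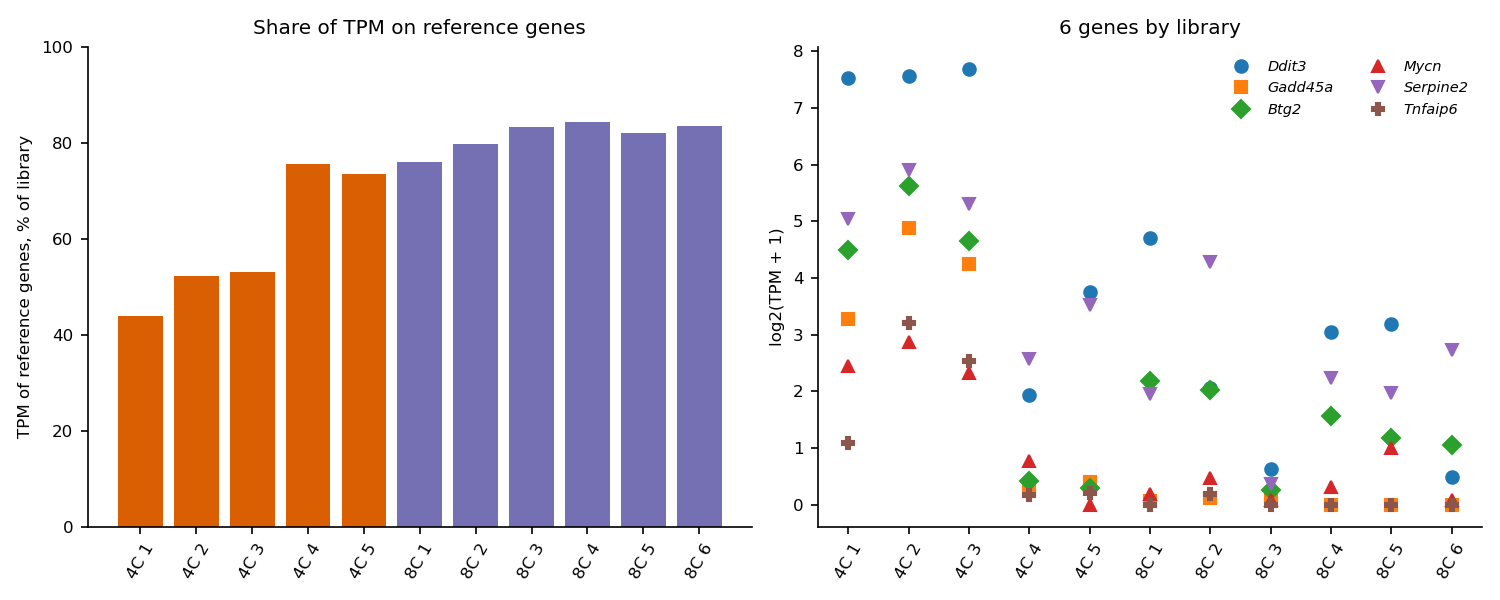
Left, bars give the TPM of annotated genes as a percentage of the assembled total in each library, from 44% in 4C replicate 1 to 84.4% in 8C replicate 4. Right, points give log2(TPM + 1) of 6 genes in the same libraries; Ddit3 lay at 182 to 205 TPM in 4C replicates 1 to 3 and at no more than 25.2 TPM in any other library.

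Of 11867 genes with a mean of at least 1 TPM over the 53 SCNT libraries, 2347 passed an adjusted p under 0.05 in limma with at least a 2-fold change on the log2(TPM + 1) scale, or 19.8% of those tested. At 8C 1370 genes were higher (11.5%) and 977 lower (8.23%). Counts within the gene lists below are to be read against these shares. A gene whose TPM changed between stages may have changed in RNA per cell or in the share of cells holding it, and pooled blastomeres cannot tell these apart. The median of all tested genes was 0.04. When TPM was rescaled so that annotated genes sum to the same total in each library, the median of all genes moved to -0.21 and 2639 genes were called (20.6% of 12810). The balance turned to 840 higher (6.56%) and 1799 lower (14%), so that 31.8% of calls were higher against 58.4% before; quantile normalization gave 52.4% higher. The median of all genes was -0.05 after quantile normalization, 0.14 in replicates 1 to 3, -0.08 in replicates 4 and up and -0.09 without 4C replicates 1 to 3. Changes are best read against the median of the same fit. Libraries of the stages did not overlap for 461 of the higher and 379 of the lower genes, where 9.88% of all tested genes had stages that did not overlap.

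The replicate numbers offered a check on separate libraries. Fitted on replicates 1 to 3 of each stage, the comparison gave 1827 calls (15.7% of 11610 genes), 1175 upward (10.1%) and 652 downward (5.62%). On replicates 4 and up it gave 2384 (19.9% of 11972), 1107 upward (9.25%) and 1277 downward (10.7%). Of 11166 genes tested in both sets, 1761 were called in the first and 2320 in the second, and 645 were called in the same direction in both, 357 higher and 288 lower, and 22 in opposite directions. The 645 made up 36.6% of those 1761 and 27.8% of those 2320. With the set as a term in a fit of the 11 4C and 8C libraries alone, 2319 genes were called, 1429 higher and 890 lower. The same fit without the term called 2046, 1258 higher and 788 lower. With 4C replicates 1 to 3 left out, 475 genes were called, 4% of those tested. Of these 152 were higher (1.28%) and 323 lower (2.72%). Of the 2347 calls made with all libraries 2266 had the same direction, 1281 were still at least 2-fold and 404 were called.

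**Figure D2:**
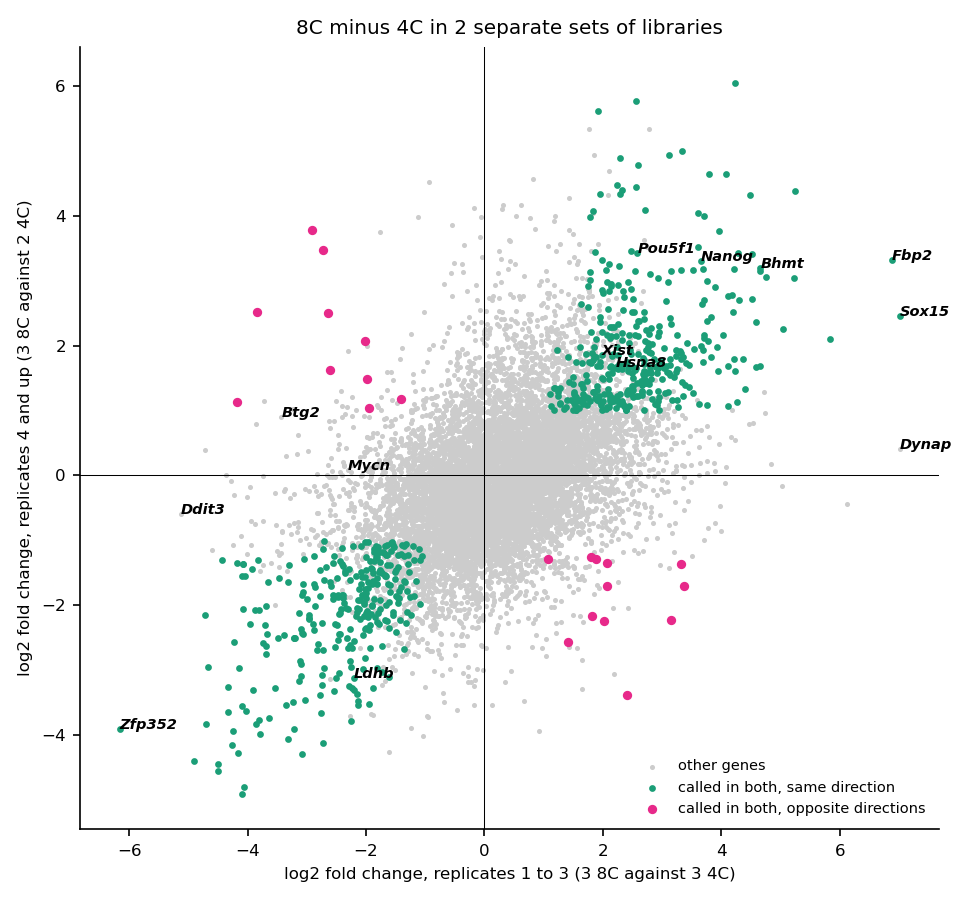
Each point is a gene, with its log2 fold change (8C minus 4C, on log2(TPM + 1)) in replicates 1 to 3 on the x axis and in replicates 4 and up on the y axis, which share no library. Green marks the 645 genes called in the same direction in both sets and pink the 22 called in opposite directions; Fbp2, Nanog, Bhmt and Zfp352 lie far from 0 on both axes, while Ddit3 and Dynap lie far from 0 only on the x axis.

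Among genes whose stages did not overlap, the largest rise was that of Fbp2 (chr13:62836885-62858370 on mm10), which encodes a fructose-1,6-bisphosphatase, an enzyme of gluconeogenesis. It held 0.143, 0, 22.7, 50.2 and 46.9 TPM in 4C replicates 1 to 5 and 216 to 566 TPM (median 462) at 8C, a log2 fold change of 5.50 ± 0.60 (SE), adjusted p = 8.95e-10 (3.08 without 4C replicates 1 to 3). The first 2 of the 4C libraries listed almost none, and the other 3 lay between 22.7 and 50.2 TPM. At L2C it held 3.71 ± 1.83 TPM (SD, n = 6) and at morula 811 ± 342 TPM (SD, n = 6). Bhmt (chr13:93616891-93637758), an enzyme that remethylates homocysteine with betaine, was at 44, 12.6, 48.8, 241 and 180.5 TPM at 4C and 507 to 2159 TPM (median 1602) at 8C. For Bhmt the log2 fold change was 4.20 ± 0.70 (SE), adjusted p = 1.28e-05, and 2.55 without 4C replicates 1 to 3 (adjusted p = 0.107). 8C replicates 1 and 2, at 616 and 507 TPM, stood below the other 4, at 1564 to 2159. Of the 50-base words of Bhmt transcripts 25.3% also occur in transcripts of other genes, so part of its signal could be shared.

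Several of the largest rises were regulators of transcription. Sox15, a SOX factor expressed in early embryos and stem cells, was at 0.428, 0.183, 43, 209 and 194 TPM at 4C and 360.0 to 1231 TPM (median 888) at 8C. For Sox15 the log2 fold change was 5.30 ± 0.79 (SE), adjusted p = 1.54e-06. Almost none was listed in 4C replicates 1 and 2, and the value was 1.95 without 4C replicates 1 to 3 (adjusted p = 0.0941). Spic, an ETS factor, held 67.1, 1.51, 96.9, 164 and 168 TPM at 4C and 519 to 1749 TPM (median 925) at 8C (4.18; 2.56 without 4C replicates 1 to 3, adjusted p = 0.121). Id3, an inhibitor of basic helix-loop-helix factors and a target of BMP signalling, was at 21.9, 0.167, 2.6, 3.25 and 51.1 TPM at 4C and 114 to 470.4 TPM (median 249) at 8C. For Id3 the log2 fold change was 4.98 ± 0.84 (SE), adjusted p = 1.84e-05, and 3.96 without 4C replicates 1 to 3 (adjusted p = 0.0251). The 4C values of Id3 ran from 0.167 to 51.1 TPM. That each was below the lowest 8C library was a condition for being among these rises.

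The other genes among the 12 largest rises had various roles. Smpdl3a, an acid sphingomyelinase-like phosphodiesterase, was at 0, 0, 1.25, 4.18 and 0 TPM at 4C and 12.9 to 171 TPM (median 91.9) at 8C (5.22 ± 0.47 (SE), adjusted p = 6.16e-12; replicates 1 to 3, 4.24; replicates 4 and up, 6.05). Anxa8, an annexin, and Abo, a glycosyltransferase, were listed at 0 TPM in all 4C libraries but replicate 3, where they held 0.355 and 0.193 TPM, and at 8C they held 14.3 to 32.8 TPM (median 19.8) and 5.25 to 41.2 TPM (median 22.5). Akr1b8, an aldo-keto reductase, was at 0.278, 0, 11.6, 7.37 and 0 TPM at 4C and in a narrow band of 52 to 65.8 TPM (median 53.9) at 8C (4.42). Becn2, a relative of the autophagy gene Beclin 1, was at 1.03, 0.095, 23.1, 17.6 and 17.4 TPM at 4C and 95.8 to 228.5 TPM (median 143) at 8C (4.36; 2.98 without 4C replicates 1 to 3). Khdc3, a component of the subcortical maternal complex, was at 0.0219, 0.788, 27.9, 69.4 and 56.4 TPM at 4C and 134 to 319 TPM (median 270.2) at 8C (4.38; 1.93 without 4C replicates 1 to 3, adjusted p = 0.16). Both held at most 1.03 TPM in 4C replicates 1 and 2 and more in the other 3. Dynap was the exception among the 12. It held 0, 0, 0.759, 45.1 and 31.2 TPM at 4C and 46.6 to 185 TPM (median 91) at 8C, and its rise of 4.21 came down to 0.40 in replicates 4 and up, where the call was lost. Without 4C replicates 1 to 3 the rise of Dynap was 1.21 (adjusted p = 0.307).

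**Figure D3:**
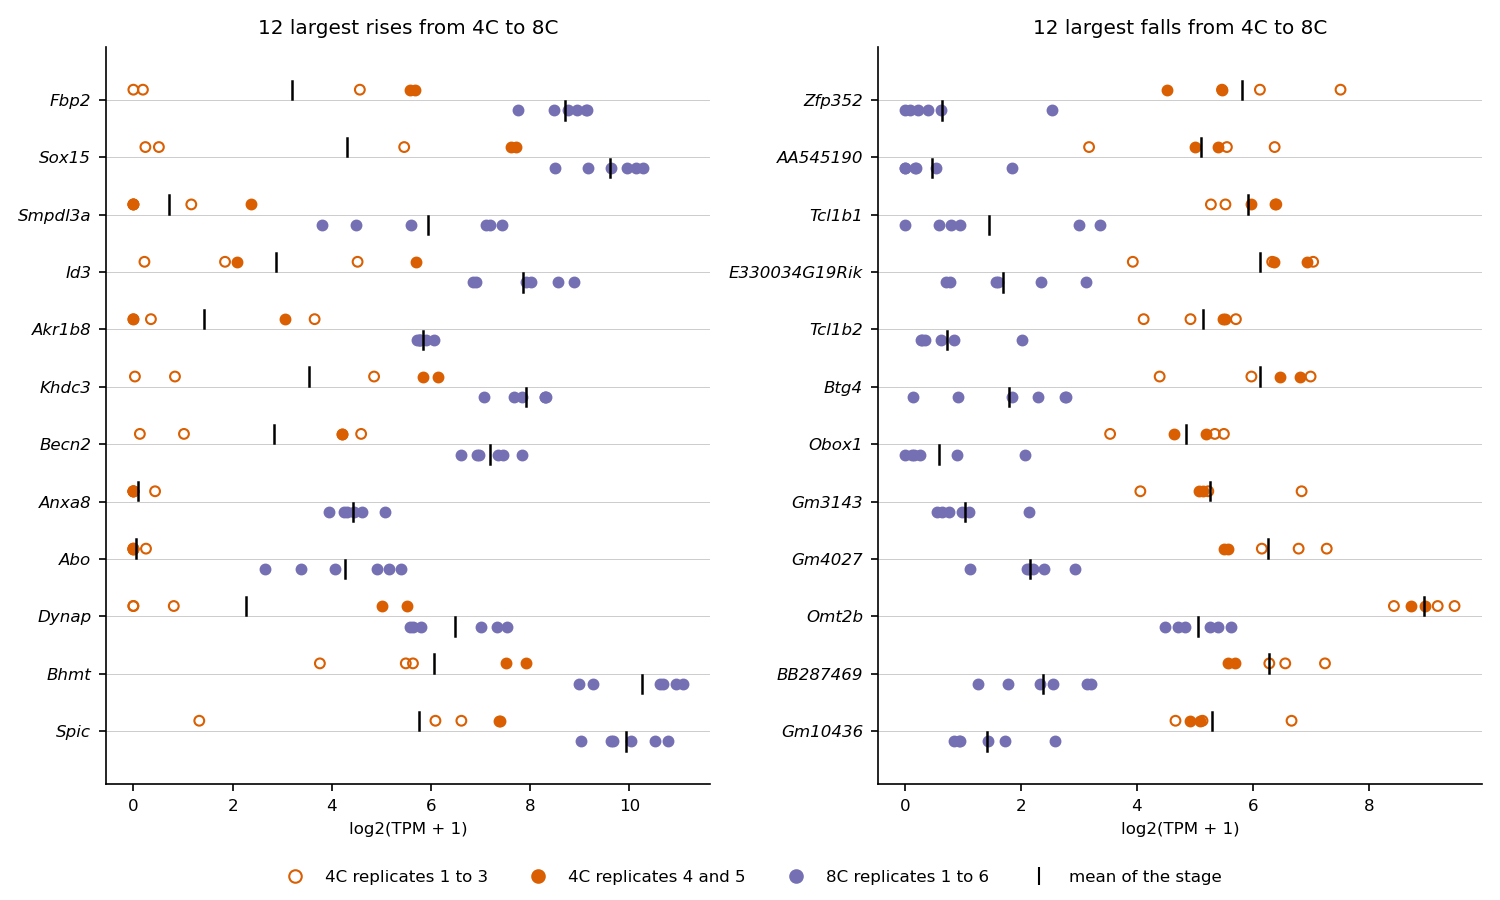
Points give log2(TPM + 1) in each library for the 12 largest rises (left) and the 12 largest falls (right) among called genes whose stages did not overlap; open circles are 4C replicates 1 to 3, filled circles 4C replicates 4 and 5, and purple circles the 8C libraries, with a bar at each stage mean. Fbp2, Sox15, Khdc3 and Dynap show 4C replicates 1 and 2 near 0. The separation of the stages in each gene follows from how the genes were chosen.

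The largest falls were of transcripts of the oocyte and of the 2C stage. Zfp352 (chr4:90218820-90225687), a zinc finger gene transcribed at the 2C stage, was at 43.3, 182, 68.7, 43.4 and 21.8 TPM at 4C and 0 to 4.79 TPM (median 0.238) at 8C (-5.18 ± 0.62 (SE), adjusted p = 9.93e-09), with -6.16 in replicates 1 to 3 and -3.92 in replicates 4 and up. Btg4, an adaptor that brings the CCR4-NOT deadenylase to maternal mRNA, was at 127, 61.9, 20, 112 and 88 TPM at 4C and 0.102 to 5.82 TPM (median 3.25) at 8C. For Btg4 the log2 fold change was -4.35 ± 0.50 (SE), adjusted p = 3.79e-09. It had been at 1404 ± 1176 TPM (SD, n = 6) at L2C, so it had come down before the 4C stage as well. Tcl1b1 and Tcl1b2, neighbours in a cluster of Tcl1 relatives on chromosome 12, fell, with log2 fold changes of -4.46 and -4.42. Omt2b, an oocyte gene on chromosome 9 with a close copy beside it, was still at 713, 583, 345, 502 and 423 TPM at 4C before it reached 21.5 to 48.1 TPM (median 32.5) at 8C (-3.91). AA545190, E330034G19Rik, Gm3143, Obox1 and Gm10436 fell too, with -4.64, -4.44, -4.24, -4.26 and -3.88. For these 5 genes and for the Tcl1b pair, the value without 4C replicates 1 to 3 lay between -3.59 and -4.97, and each call was kept. Gm4027 and BB287469 on chromosome 12, which fell (-4.11 and -3.90), share 94.4 and 96.6% of their 50-base words with other genes and cannot be separated from them. Shared words also made up 57.4% in Obox1 and 63.6% in Gm10436.

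Many oocyte and maternal genes fell. Of 47 tested members of a list of such genes, 22 fell (46.8%, against 8.23% of all genes), 1 rose and 24 did not pass, with a median log2 fold change of -1.39. When 4C replicates 1 to 3 were left out, 23 fell and none rose, with a median of -1.88. In replicates 4 and up 32 fell and in replicates 1 to 3, 18. Those that fell included Zp2 of the zona pellucida, the growth factor Bmp15, Bcl2l10, and Nlrp5 of the subcortical maternal complex, beside the Oog, Fbxw and Omt2 families. Zp1, Zp3, Gdf9, Ooep, Tle6, Padi6 and Nlrp2 did not pass with all libraries. That does not show that they stayed level, since more members of the list were called lower in replicates 4 and up. Khdc3 was the member that rose, and Dppa3, a maternal protein that protects the maternal genome from demethylation and is also made by the embryo, was the most abundant, at 7342, 6549, 9083, 12250 and 11630 TPM at 4C and 13430 to 15650 TPM (median 14120) at 8C. Its difference of 0.66 ± 0.24 (SE), adjusted p = 0.0382 was under 2-fold.

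Genes of the 2C stage differed in their level at 4C. Zscan4c and Zscan4d, transient markers of the 2C stage, held at most 0.182 and 0.126 TPM in any 4C library and at most 0.0828 and 0.0114 at 8C, after 14.2 ± 8.58 TPM (SD, n = 6) and 12.7 ± 9.7 TPM (SD, n = 6) at L2C, and Dux, the factor upstream of them, reached 0.0719 TPM at 4C and 0.173 at 8C. Others were still high at 4C. Zfp352, described above, did not pass from L2C, at 95.2 ± 53 TPM (SD, n = 6), to 4C (-0.36, adjusted p = 0.678). Of 33 tested late 2C and MERVL-linked genes (MERVL is a retroviral repeat whose ends act as promoters at 2C), 14 fell (42.4%), 2 rose (Tdpoz2 and Tmem92) and 17 did not pass, with a median of -1.25. After removal of 4C replicates 1 to 3, 4 fell and none rose, and the median was -0.57. Among those that fell were Obox5 (-4.11), Gm5662 (-3.22; -1.87 without 4C replicates 1 to 3, adjusted p = 0.508), Tcstv1, Tcstv3 and Arg2. Usp17lb, which encodes a deubiquitinating enzyme, was at 7.92, 39.8, 88.6, 53.3 and 99.4 TPM at 4C and 11.6 to 25.3 TPM (median 15.8) at 8C, a difference of -1.35 ± 0.69 (SE), adjusted p = 0.166 that did not pass, though it did in replicates 4 and up (-2.18). Obox6, an oocyte homeobox family member, stayed abundant, at 468, 648, 389, 1292 and 1212 TPM at 4C and 1124 to 1519 TPM (median 1401) at 8C (0.94 ± 0.64 (SE), adjusted p = 0.322), and Sp110 was at 168 to 261 and 158 to 508 TPM. For Sp110 the log2 fold change was 0.52 ± 0.56 (SE), adjusted p = 0.582. Zscan4c, Zscan4d and Gm5662 share 85.5, 49.6 and 77.9% of their 50-base words with other genes.

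Many factors of pluripotency rose. Of 26 tested, 14 were higher (53.8%, against 11.5% of all genes) and none lower, with a median of 1.5; without 4C replicates 1 to 3 the median was 0.61 and 1 passed, and rescaled it was 1.12 with 13 higher and 1 lower. Nanog, a homeobox factor of the ICM, went from 0.155, 0.0221, 1.161, 1.64 and 0.155 TPM at 4C to 7.23 to 36 TPM (median 16.2) at 8C (3.52 ± 0.47 (SE), adjusted p = 1.72e-07), and the value was 3.31 without 4C replicates 1 to 3 (adjusted p = 0.000475). Every 8C library exceeded every 4C library. Pou5f1, which encodes OCT4, was at 0.238, 0.0264, 1.13, 5.54 and 1.04 TPM at 4C and 4.5 to 55.5 TPM (median 24.5) at 8C. For Pou5f1 the log2 fold change was 3.15 ± 0.72 (SE), adjusted p = 0.00109. Its 8C values lay in separate ranges, 4.5 and 4.72 TPM in replicates 1 and 2 and 17.5 to 55.5 in the other 4, and the first 2 fell below 4C replicate 4, at 5.54. Without 4C replicates 1 to 3 the rise of Pou5f1 was 2.31 and did not pass (adjusted p = 0.238). Sox2, a partner of OCT4, was listed at 0 TPM in all 4C libraries and reached 0.0389 in 1 of 6 at 8C, whereas the ICM held 1.59 ± 1.56 TPM (SD, n = 6).

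Klf5 and Tfap2c, factors shared by the early TE and ICM, were at 0.09, 0, 3.55, 22.1 and 16.4 and 12.5, 0.65, 6.46, 17.9 and 12.1 TPM at 4C and at 16.8 to 104 TPM (median 33.1) and 13.2 to 60.7 TPM (median 42.2) at 8C. Both ranges overlapped between stages, with rises of 3.13 ± 0.52 (SE), adjusted p = 1.16e-05 and 1.98 ± 0.52 (SE), adjusted p = 0.00397. The 4C libraries of Klf5 were split, at most 3.55 TPM in replicates 1 to 3 and at least 16.4 in replicates 4 and 5, and without the former the value was 1 (adjusted p = 0.383); that of Tfap2c was 1.07 (adjusted p = 0.496). Tdgf1, a co-receptor of NODAL, rose by 3.27 (2.41 without 4C replicates 1 to 3, adjusted p = 0.388). The most abundant members, Dppa5a and Dppa2, were at 614, 262, 1168, 2058 and 1716 and 259, 442, 441, 898 and 751 TPM at 4C and did not overlap with 8C, at 2966 to 3315 TPM (median 3086) and 1318 to 2063 TPM (median 1510), with rises of 1.75 and 1.65, and 0.72 and 0.96 without 4C replicates 1 to 3. Klf2, Prdm14, Nr5a2, Zfp42, Utf1, Tbx3 and Lin28a also passed, but without 4C replicates 1 to 3 Nanog was the only pluripotency factor called.

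**Figure D4:**
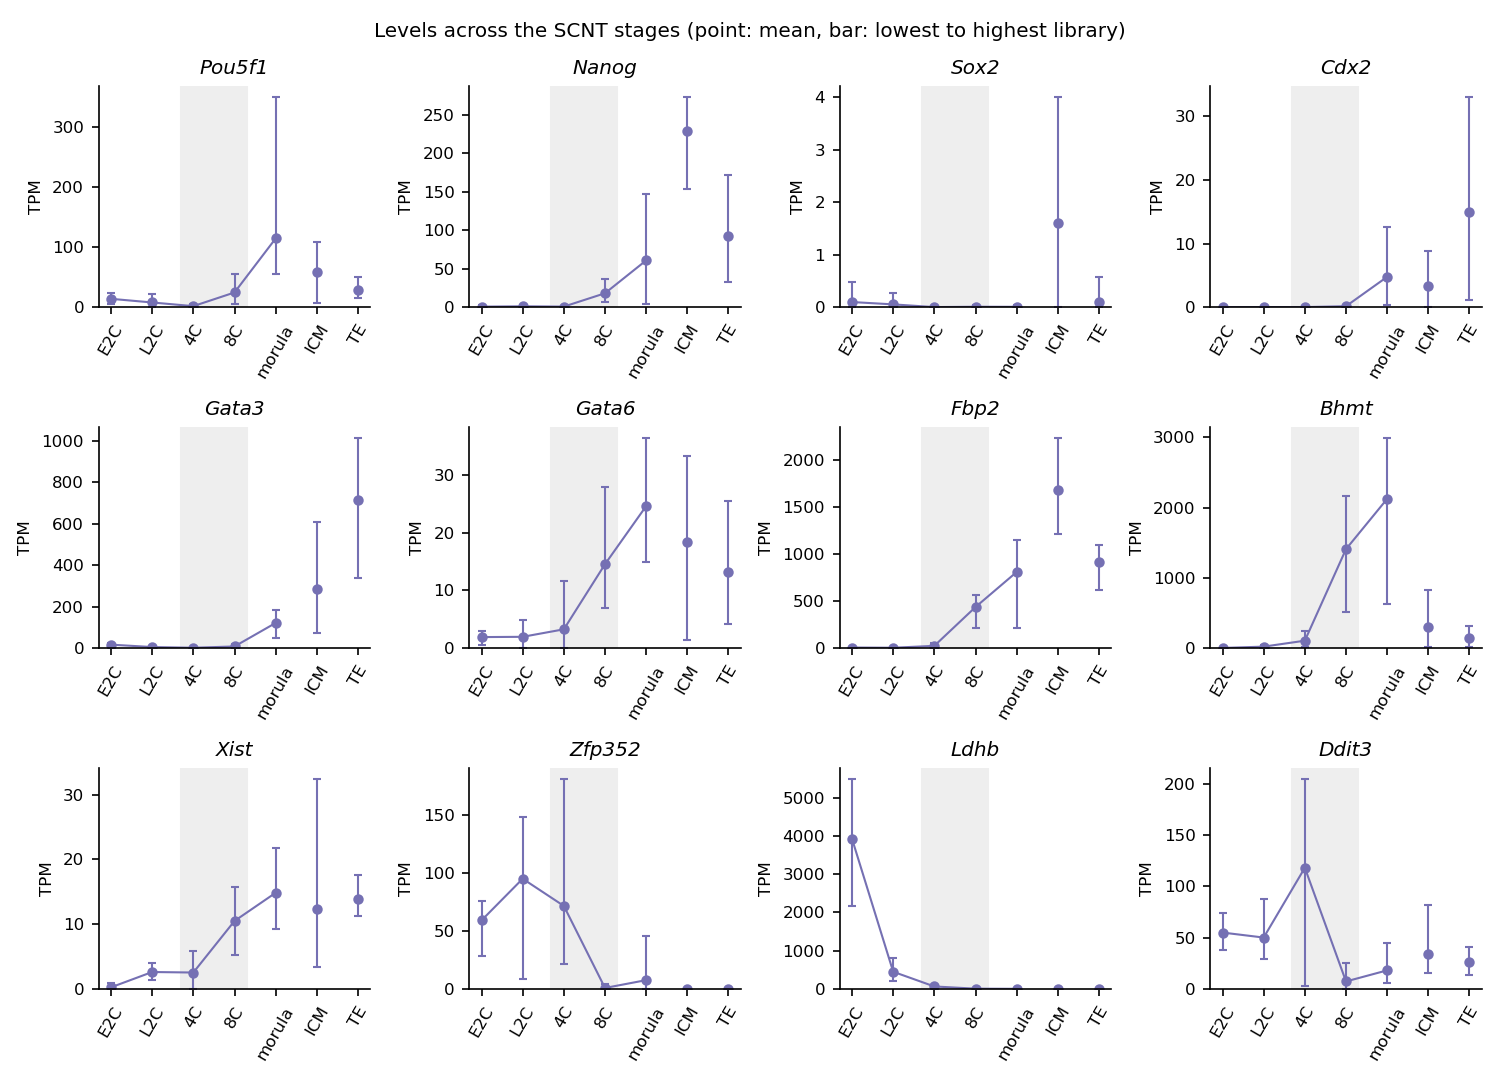
TPM of 12 genes over the SCNT stages, with the mean as a point and the lowest to highest library as a bar; the shaded band holds 4C and 8C, E2C and L2C are early and late 2C, and ICM and TE are parts of the blastocyst. Pou5f1, Nanog, Gata6, Fbp2, Bhmt and Xist climb across the band, Zfp352 and Ldhb fall, Sox2, Cdx2 and Gata3 reach at most 0.0389, 0.298 and 19.9 TPM at 8C, and the 4C bar of Ddit3 runs from 2.84 to 205 TPM.

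Of 24 tested TE factors 9 were higher (37.5%), Id2 was lower, and the median was 0.47. With 4C replicates 1 to 3 left out, 4 were higher and none lower, with a median of 0.70. Cdx2, the homeobox factor of TE, was listed at 0 TPM in all 4C libraries and at 0.0547 to 0.298 at 8C, where TE held 14.9 ± 14 TPM (SD, n = 6). Gata3, a TE factor that acts beside CDX2, was at 0.802, 0.241, 4.48, 2.07 and 0.671 TPM at 4C and 2.33 to 19.9 TPM (median 5.85) at 8C (1.64 ± 0.45 (SE), adjusted p = 0.00626; 1.65 without 4C replicates 1 to 3, adjusted p = 0.124), and at morula it reached 121 ± 48 TPM (SD, n = 6). Tead4, the DNA-binding partner of YAP1 needed for TE, was at 2.59, 0.43, 3.35, 13.8 and 16.4 TPM at 4C and 16.3 to 50.4 TPM (median 40.4) at 8C. For Tead4 the log2 fold change was 2.60 ± 0.50 (SE), adjusted p = 0.000122. 8C replicate 1 of Tead4 was level with 4C replicate 5, and without 4C replicates 1 to 3 the value was 1.09 (adjusted p = 0.423). Dab2, an endocytic adaptor, rose in both sets of libraries, from 0.0565, 0.152, 3.9, 0.134 and 1.13 TPM to 5.2 to 64.8 TPM (median 40.5), with 3.34 in replicates 1 to 3 and 5.00 in replicates 4 and up. Krt18, a keratin of TE, was at 0.106, 16.7, 23.5, 3.94 and 2.92 TPM at 4C and 27.9 to 208 TPM (median 59.9) at 8C (3.32 ± 0.60 (SE), adjusted p = 4.55e-05), and Tspan8, a tetraspanin, rose by 2.63 although 4C replicate 3, at 21.4 TPM, was above 5 of the 6 8C libraries. Fabp3, a fatty acid binding protein abundant in TE, was at 112, 104, 202, 14.9 and 20.2 TPM at 4C and 42.8 to 119 TPM (median 96) at 8C, with -1.03 in replicates 1 to 3 and 2.51 in replicates 4 and up. Slc5a6, a vitamin transporter, rose by 1.52, a call lost without 4C replicate 1 or 2 or 8C replicate 4 or 6 (1.30 to 1.38), and 0.75 without 4C replicates 1 to 3.

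Genes of primitive endoderm, the lineage that arises in the ICM under FGF signalling, were sparse at these stages, with 9 of 28 under the filter. Among the 19 tested, 5 rose (26.3%) and 2 fell, with a median of 0.60. When 4C replicates 1 to 3 were left out, 1 fell and none rose, with a median of 0.11. Gata6, the factor of that lineage, was at 0.0359, 1.02, 2.21, 1.42 and 11.6 TPM at 4C and 7.04 to 27.9 TPM (median 9.78) at 8C. For Gata6 the log2 fold change was 2.21 ± 0.54 (SE), adjusted p = 0.00226, and 1.28 without 4C replicates 1 to 3 (adjusted p = 0.443). The receptor Fgfr2 was at no more than 0.773 TPM at 4C and at 4.08 to 9.82 in all 8C libraries but replicate 2, at 0.124. For Fgfr2 the log2 fold change was 2.02 ± 0.46 (SE), adjusted p = 0.000915, and 1.71 without 4C replicates 1 to 3. Of the FGF feedback inhibitors, Spry4 fell from 2.12, 2.53, 0.449, 10.2 and 11.5 TPM to 0.0236 to 1.48 TPM (median 0.569) (-1.58 ± 0.43 (SE), adjusted p = 0.00548; -2.92 without 4C replicates 1 to 3), while Spry2 was at 125, 164, 274, 143 and 190.3 TPM at 4C and 277 to 380.1 TPM (median 319) at 8C, stages that did not overlap but whose difference of 0.91 ± 0.62 (SE), adjusted p = 0.328 did not pass. Lamb1, a laminin, fell by 1.46 and the kinase Map2k1 rose by 1.30. Both calls were lost on leaving out any of 4C replicates 1 to 3, with -1.13 to -1.36 for Lamb1 and 1.10 to 1.22 for Map2k1. That of Lamb1 was also lost without 8C replicate 5, and that of Map2k1 without any of 8C replicates 2 to 6. Without all of 4C replicates 1 to 3 the values were -0.30 and 0.39.

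Of 43 tested genes of compaction, polarity and junctions 10 rose (23.3%) and 4 fell (9.3%), where 11.5 and 8.23% of all genes did. The median was 0.52 (0.25 rescaled). After removal of 4C replicates 1 to 3, 5 rose and 1 fell, with a median of 0.39. Aqp3, a water and glycerol channel, was at 2.67, 1.55, 2.81, 2.93 and 0.603 TPM at 4C and 10 to 63.1 TPM (median 25.6) at 8C (3.17 ± 0.51 (SE), adjusted p = 6.53e-06; 3.40 without 4C replicates 1 to 3), and all 8C libraries exceeded all of 4C. Claudin 4 (Cldn4), a tight junction protein, held at most 0.743 TPM at 4C and 0.782 to 14.8 TPM (median 8.65) at 8C (2.55), and F11r, the junctional adhesion molecule A, was at 0.572, 6.57, 16.9, 48.6 and 28.7 TPM at 4C and 44.3 to 124 TPM (median 84) at 8C (2.62; 1.01 without 4C replicates 1 to 3, adjusted p = 0.617). E-cadherin (Cdh1), which holds compacted blastomeres together, was at 0.809, 4.14, 3.18, 4.19 and 5.92 TPM at 4C and 4.78 to 15.6 TPM (median 9.74) at 8C, a rise of 1.25 ± 0.39 (SE), adjusted p = 0.0155. That call was lost without 4C replicate 1 (0.94, adjusted p = 0.101), and the value was 0.76 without 4C replicates 1 to 3. Prkci, an atypical protein kinase C of the apical domain, fell from 14.4, 9.66, 15, 2.67 and 2.91 TPM to 0.0383 to 2.88 TPM (median 0.0902) (-2.34 ± 0.50 (SE), adjusted p = 0.000521; -1.22 without 4C replicates 1 to 3, adjusted p = 0.41), while its relative Prkcz rose. Rhoa, a small GTPase of the actin cortex, rose by 1.39 (0.39 without 4C replicates 1 to 3), and beta-actin (Actb) was at 314, 372, 422, 299 and 291 TPM at 4C and 357 to 762 TPM (median 634) at 8C, 0.82 ± 0.26 (SE), adjusted p = 0.0197, under 2-fold.

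In the Hippo pathway 3 of 20 tested genes rose (15%, against 11.5% of all genes) and 1 fell (5%, against 8.23%). The median of 0.11 turned to -0.31 rescaled, -0.01 after quantile normalization and -0.13 without 4C replicates 1 to 3, where none was called. The median of all genes moved as well, from 0.04 to -0.21, -0.05 and -0.09 in the same fits. Tead4 was the largest rise, described above. Yap1, its coactivator, was at 4.91, 12.5, 9.58, 18.2 and 9.41 TPM at 4C and 3.52 to 12.9 TPM (median 5.38) at 8C and did not pass. For Yap1 the log2 fold change was -0.66 ± 0.44 (SE), adjusted p = 0.314. Sav1, a scaffold of the Hippo kinases, fell from 8.57, 2.45, 12.8, 3.97 and 2.18 TPM to 0.186 to 1.08 TPM (median 0.634). For Sav1 the log2 fold change was -1.91 ± 0.43 (SE), adjusted p = 0.000837, and -1.34 without 4C replicates 1 to 3 (adjusted p = 0.212). Vgll4, a competitor of YAP1 for TEAD, and Ctgf, a known target, rose by 2.30 and 1.54. Without 4C replicate 1 or 2 both calls were lost, at 2.18 for Vgll4 in each case and 1.40 and 1.37 for Ctgf, and that of Vgll4 was also lost without 4C replicate 3 or 8C replicate 3, 4 or 6 (1.90 to 2.19). Both were smaller without 4C replicates 1 to 3 (1.60 and 1.06). Mob1b did not pass, and its value of 0.14 turned negative without 4C replicate 3, rescaled, or in replicates 4 and up.

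Of 22 tested genes of glucose uptake and glycolysis 7 rose (31.8%), 1 fell, and the median was 0.77 (0.59 rescaled). Without 4C replicates 1 to 3, 1 rose and 1 fell, with a median of 0.69. The hexokinases, which trap glucose in the cell, both rose: Hk1 from 0, 0.0357, 1.38, 1.19 and 1.12 TPM to 2.46 to 13.1 TPM (median 6.71) (2.22 ± 0.46 (SE), adjusted p = 0.000387; 1.81 without 4C replicates 1 to 3) and Hk2 from 2.64, 15, 2.99, 1.32 and 1.94 TPM to 9.77 to 19 TPM (median 14.5). For Hk2 the log2 fold change was 1.81 ± 0.45 (SE), adjusted p = 0.00242. For Hk2, 4C replicate 2 lay within the 8C range, and without 4C replicates 1 to 3 the rise was 2.56 (adjusted p = 0.00286). Aldoa, an aldolase, and Pdha1, a subunit of pyruvate dehydrogenase, rose by 1.83 and 1.58 and were called in both replicate sets (1.01 and 1.15 without 4C replicates 1 to 3). Slc2a3, the glucose transporter GLUT3, Tpi1 and Pgam1 also passed, but without 4C replicates 1 to 3 Hk2 was the only rise called. Ldhb, the lactate dehydrogenase subunit stored by the oocyte, fell from 44.4, 63, 52.7, 84 and 99.1 TPM to 4.87 to 19.6 TPM (median 11.4) (-2.59 ± 0.49 (SE), adjusted p = 0.000105; -3.06 without 4C replicates 1 to 3), continuing a decline from 452 ± 241 TPM (SD, n = 6) at L2C.

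The nuclear genes of the respiratory chain did not move as one. Of 76 tested 7 rose (9.21%, below the 11.5% of all genes) and none fell, and the median of 0.06 turned to -0.42 rescaled and -0.36 after quantile normalization. In replicates 1 to 3, 15 rose and 2 fell, where 10.1 and 5.62% of all genes did. In replicates 4 and up 4 rose and 1 fell, rescaled 3 rose and 7 fell, and without 4C replicates 1 to 3 none was called and the median was -0.12. Cyc1 and Uqcrc1, subunits of complex III, were at 4.42, 16.4, 36.6, 81.6 and 62.3 and 42.4, 35.7, 76.8, 243 and 166 TPM at 4C and at 63.7 to 260.3 TPM (median 176) and 201 to 599.6 TPM (median 386) at 8C (2.34 and 2.04; 1 and 0.83 without 4C replicates 1 to 3). Ndufa10 of complex I rose by 1.75 (0.85 without 4C replicates 1 to 3, adjusted p = 0.565) and Ndufv1, also of complex I, by 1.72, a call lost without any of 4C replicates 1 to 3 or 8C replicates 3 to 6 (1.43 to 1.69), and 0.49 without all of those 4C libraries. The most abundant subunits, Atp5g1 and Uqcr10, held 1945 ± 249.7 and 1097 ± 68.3 TPM (SD, n = 5) at 4C and 1523 ± 196 and 1042 ± 108 (SD, n = 6) at 8C and did not pass (-0.35 ± 0.24 (SE), adjusted p = 0.32, and -0.08 ± 0.25 (SE), adjusted p = 0.882).

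Cytosolic ribosomal protein genes gave counts that depended strongly on the 4C libraries. All 79 were tested, 20 rose (25.3%) and none fell, with a median of 0.68 (0.20 rescaled, 0.15 after quantile normalization, 0.28 without 4C replicates 1 to 3). In replicates 1 to 3 alone 35 rose, in replicates 4 and up 2, rescaled 4, and without 4C replicates 1 to 3 none. Their summed TPM was 52050 to 58530 in 4C replicates 1 to 3, 91130 to 92360 in 4C replicates 4 and 5 and 104400 to 111800 at 8C. Rps2 was the largest rise, from 146, 259.5, 270.5, 676 and 555 TPM to 702 to 1452 TPM (median 1227) (1.72; 0.83 without 4C replicates 1 to 3, adjusted p = 0.514), followed by Rpl8 (1.56), Rplp0 (1.54) and Rpl10 (1.49), with 0.51, 0.44 and 0.82 without those libraries. Rpl41, among the most abundant, had 0.47 and did not pass, and its direction turned when rescaled (-0.01). Many ribosomal protein genes have processed pseudogenes; 43% of the 50-base words of Rps2 transcripts occur in other genes.

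Ribosome biogenesis and RNA polymerase I genes showed 8 rises of 56 tested (14.3%, against 11.5% of all genes) and no fall, with a median of 0.55 that was 0.08 rescaled. With 4C replicates 1 to 3 left out, none was called and the median was 0.18. Npm1, nucleophosmin of the nucleolus, was at 1331, 1228, 1605, 2806 and 2082 TPM at 4C and 3279 to 4773 TPM (median 4183) at 8C (1.23 ± 0.22 (SE), adjusted p = 3e-05; 0.74 without 4C replicates 1 to 3, adjusted p = 0.147), and the stages did not overlap. Polr1b, the second subunit of RNA polymerase I, rose by 1.96 (0.82 without 4C replicates 1 to 3) and Wdr43 by 1.21 (0.53). Taf1b, of the polymerase I selectivity factor, rose by 1.40, a call lost without 4C replicate 1 (0.76), 4C replicate 3 (1.34) or 8C replicate 4 (1.32) or 5 (1.31), and 0.71 without 4C replicates 1 to 3. Nhp2 was at 761 to 1156 TPM at 4C and 1478 to 1922 at 8C, stages that did not overlap, and its 0.88 ± 0.32 (SE), adjusted p = 0.0423 was under 2-fold.

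Of the DNA replication genes, 11 of 49 tested (22.4%) were higher and none lower, with a median of 0.65 (0.28 rescaled). When 4C replicates 1 to 3 were left out, none was called and the median was 0.12. Tk1, thymidine kinase, was at 12.9, 26.9, 46.1, 239 and 144 TPM at 4C and 264 to 425 TPM (median 398) at 8C. For Tk1 the log2 fold change was 2.71 ± 0.57 (SE), adjusted p = 0.000392, and 1.01 without 4C replicates 1 to 3 (adjusted p = 0.578). 4C replicates 4 and 5, at 239 and 144 TPM, were above replicates 1 to 3 but below all of 8C. Mcm10 and Mcm6, parts of the replication fork machinery, rose by 2.16 and 1.91 (1.34 and 0.66 without those libraries) and Rrm2, which makes deoxynucleotides, by 1.59 (0.41). Gmnn, the inhibitor of origin licensing, and Pole4 did not pass (0.20 and -0.07), and Gmnn turned to -0.27 rescaled and -0.60 in replicates 4 and up.

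Of 50 tested cyclin, CDK and mitosis genes 10 rose (20%) and 4 fell (8%), where 11.5 and 8.23% of all genes did. The median was 0.45 (0.07 rescaled). After removal of 4C replicates 1 to 3, 2 fell and none rose, and the median was -0.04. Aurka, the Aurora A kinase, was at 18.2, 31.5, 69.3, 272 and 178 TPM at 4C and 159.6 to 661 TPM (median 535) at 8C. For Aurka the log2 fold change was 2.41 ± 0.57 (SE), adjusted p = 0.00151, and 0.83 without 4C replicates 1 to 3 (adjusted p = 0.707). Ccnd3 and Cdk2 rose by 2.56 and 1.91 (1.45 and 1.07 without those libraries), as did Cdc20, the anaphase activator, by 1.77, a call lost without 4C replicate 1 (1.5) or 2 (1.45). Among the genes that fell were Ccne2 (-1.82; -1.23 without 4C replicates 1 to 3, adjusted p = 0.503), a cyclin of S phase entry, the inhibitor Cdkn1b, the oocyte kinase Wee2 and Pttg1. Ccnb1, the most abundant, was at 795 to 2681 TPM at 4C and 2098 to 3026 at 8C. For Ccnb1 the log2 fold change was 0.76 ± 0.30 (SE), adjusted p = 0.0676.

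Heterochromatin genes were examined because H3K9me3, the repressive mark on lysine 9 of histone H3, is the subject of the study. Of 33 tested H3K9 genes 1 rose (3.03%) and 3 fell (9.09%), where 11.5 and 8.23% of all genes did. The median was -0.29 (-0.63 rescaled, with none higher and 8 lower). Without 4C replicates 1 to 3, 1 fell and none rose, with a median of -0.34. Trim28, the corepressor KAP1 that brings SETDB1 to DNA, was at 24.4, 46.2, 26.6, 42.2 and 52.6 TPM at 4C and 45.3 to 150.5 TPM (median 93.1) at 8C (1.26 ± 0.39 (SE), adjusted p = 0.0166), and the call was lost without 4C replicate 1 (1.12), 4C replicate 3 (1.15) or 8C replicate 6 (1.11). The value was 0.91 without 4C replicates 1 to 3. Suv39h2, an H3K9 methyltransferase, fell from 1.95, 9.99, 6.43, 4.67 and 9.58 TPM to 0.0457 to 3.31 TPM (median 0.801) (-1.83 ± 0.46 (SE), adjusted p = 0.00282; -2.02 without 4C replicates 1 to 3, adjusted p = 0.0474), after 35.3 ± 10.5 TPM (SD, n = 6) at L2C. The other methyltransferases named here did not pass: Setdb1 was at 5.98, 7, 8.79, 6.05 and 8.29 TPM at 4C and 4.11 to 11.7 TPM (median 7.43) at 8C (-0.02 ± 0.41 (SE), adjusted p = 0.983), and Suv39h1 at 11.3, 10.8, 3.83, 6.53 and 4.78 and 6.6 to 15.2 TPM (median 8.74) (0.39 ± 0.45 (SE), adjusted p = 0.611, -0.04 rescaled). Kdm4b, a demethylase of H3K9me3, was under the filter, with no more than 0.759 TPM at 4C and 1.29 at 8C. Mphosph8, which reads H3K9me3, and Uhrf2 fell (-1.37 and -1.44). Mphosph8 lost its call without 4C replicate 2 (-1.17), and Uhrf2 without 4C replicate 1 or 2 or 8C replicate 2, 3, 4 or 6 (-1.01 to -1.37). Without all of 4C replicates 1 to 3 they were at -0.98 and -0.53. Cbx3, the HP1 gamma gene, and Pphln1 were the most abundant members and did not pass (-0.15 and -0.13).

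Of 18 tested DNA methylation genes 1 rose and 4 fell (22.2%), with a median of -0.11. With 4C replicates 1 to 3 left out, 1 fell and none rose, with the same median. Dnmt1, the maintenance enzyme, was at 5.82, 6.34, 1.43, 5.32 and 5.48 TPM at 4C and 1.29 to 3.36 TPM (median 2.94) at 8C (-0.65 ± 0.46 (SE), adjusted p = 0.348), and Dnmt3b, a de novo enzyme, at 0.722, 1.74, 2.06, 2.17 and 0.313 and 0.473 to 7 TPM (median 4.24) (0.93 ± 0.39 (SE), adjusted p = 0.0816); neither passed. Dnmt3l, a cofactor of the de novo enzymes, rose by 1.39, a call lost without any of 4C replicates 1 to 3 or 8C replicate 2, 3 or 6 (1.11 to 1.45), and 0.69 without all of those 4C libraries. Zfp57, which protects imprints, fell from 4.28, 2.65, 5.12, 14.3 and 17.8 TPM to 0.386 to 5.69 TPM (median 2.18) (-1.34), a call lost without 4C replicate 4 (-1.11) or 5 (-1.03) or 8C replicate 1 (-1.10) or 5 (-1.29), and was -2.41 without 4C replicates 1 to 3 (adjusted p = 0.00866). Tet3, the oocyte dioxygenase, fell as well, as did Gadd45a and Gadd45b, described below.

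In the MYC, MAX and NSL complex list (NSL is a histone acetyltransferase complex) 3 of 19 tested genes rose (15.8%) and 2 fell (10.5%). Of all genes 11.5% rose and 8.23% fell. The median of the list was -0.10. When 4C replicates 1 to 3 were left out, none was called and the median was -0.27. Max, the partner of MYC factors, was at 7.06, 14.3, 9.69, 8.79 and 4.54 TPM at 4C and 0.879 to 11.1 TPM (median 3.86) at 8C and did not pass (-0.98 ± 0.49 (SE), adjusted p = 0.152), with -1.92 in replicates 1 to 3 and 0.07 in replicates 4 and up. Mcrs1, a subunit of the NSL complex, was at 1.71, 6.2, 26.2, 104 and 69.4 TPM at 4C and 50.7 to 246 TPM (median 138) at 8C. For Mcrs1 the log2 fold change was 2.70 ± 0.76 (SE), adjusted p = 0.00731. The call of Mcrs1 was lost without 4C replicate 1 (1.97, adjusted p = 0.0703), and its value was 0.66 without 4C replicates 1 to 3. Myc was at 0, 0.0659, 0.291, 10.4 and 11.7 TPM at 4C and 4.02 to 69.2 TPM (median 19.2) at 8C. For Myc the log2 fold change was 2.82 ± 0.77 (SE), adjusted p = 0.00624, and 0.76 without 4C replicates 1 to 3 (adjusted p = 0.863). Mycn went the other way, from 4.49, 6.36, 4.03, 0.717 and 0 TPM to 0.0608 to 0.996 TPM (median 0.196). For Mycn the log2 fold change was -1.33 ± 0.50 (SE), adjusted p = 0.0499. This call was lost without any single 4C library of replicates 1 to 3 (-1.03 to -1.17) or any 8C library but replicate 5 (-1.27 to -1.35), and in replicates 4 and up the value was 0.08. Wdr5, shared by several chromatin complexes, rose by 1.60, lost without any of 4C replicates 1 to 3 or 8C replicates 3 to 6 (1.28 to 1.60). Phf20 of the NSL complex fell by 1.36, lost without 4C replicate 1 (-1.17). After removal of 4C replicates 1 to 3 Wdr5 and Phf20 were at 0.20 and -0.93.

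Several stress and p53 response genes were high in 4C replicates 1 to 3 and low in 4C replicates 4 and 5. Ddit3, the CHOP factor of the unfolded protein response, was at 182, 188, 205, 2.84 and 12.5 TPM at 4C and 0.41 to 25.2 TPM (median 5.24) at 8C. Its fall of -3.34 ± 0.68 (SE), adjusted p = 0.000249 was -5.12 in replicates 1 to 3, -0.60 in replicates 4 and up and -0.49 without 4C replicates 1 to 3 (adjusted p = 0.894). Gadd45a, a growth arrest gene, held 8.72, 28.4, 17.9, 0.209 and 0.33 TPM at 4C and at most 0.117 at 8C (-2.56; -0.28 without 4C replicates 1 to 3, adjusted p = 0.961). Btg2, an antiproliferative p53 target, was at 21.6, 48.4, 24.2, 0.348 and 0.231 TPM at 4C and 0.207 to 3.56 TPM (median 1.61) at 8C, and its fall of -1.72 turned into a rise of 1.02 without those libraries; the call was also lost without any of 4C replicates 1 to 3 alone (-1.09 to -1.37) or 8C replicate 3, 5 or 6 (-1.5 to -1.68). Gadd45b fell in both sets, from 26, 30.8, 33, 11.1 and 14.2 TPM to 0.955 to 11 TPM (median 2.92) (-2.78 and -1.86; -1.73 without 4C replicates 1 to 3). So did Mdm4, an inhibitor of p53, from 77.6 ± 21.7 TPM (SD, n = 5) to 21 ± 7.35 (SD, n = 6), though in replicates 1 to 3 its -1.76 did not pass (-1.61 without 4C replicates 1 to 3). Over the p53 list 3 of 23 tested rose (13%) and 5 fell (21.7%), where 11.5 and 8.23% of all genes did. The median of 0.50 was 0.03 rescaled. The median was -0.52 in replicates 1 to 3, with 2 higher and 3 lower, and 0.78 in replicates 4 and up, with 4 higher and 1 lower, so its sign differed between the sets. Without 4C replicates 1 to 3 it was 0.31, with 2 higher and none lower. Tigar, which restrains glycolysis, rose by 1.72 (0.45 without 4C replicates 1 to 3) and Bax did not pass. For Bax the log2 fold change was 1.03 ± 0.59 (SE), adjusted p = 0.225. That the same libraries held a low share of TPM on annotated genes was measured, and its part in these values was not tested.

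Several chaperones rose. Hspa8, the constitutive chaperone HSC70, was at 715, 926, 892, 2513 and 1773 TPM at 4C and 3089 to 7772 TPM (median 5839) at 8C (2.08 ± 0.31 (SE), adjusted p = 2.03e-06), called in both replicate sets (2.22 and 1.66) and at 1.28 without 4C replicates 1 to 3 (adjusted p = 0.0553). Hsp90ab1 and the co-chaperone Dnaja1 rose by 1.47 and 1.54 (0.87 and 0.52 without those libraries). Of the 26 tested heat shock and stress genes 6 rose (23.1%) and 2 fell, Ddit3 and Hspa5, and the median of 0.44 was -0.03 rescaled. With 4C replicates 1 to 3 left out, none was called and the median was 0.17. Sod1, which detoxifies superoxide, was at 1866 to 2060 TPM at 4C and 947 to 1961 at 8C and did not pass. For Sod1 the log2 fold change was -0.53 ± 0.28 (SE), adjusted p = 0.187.

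Of 26 tested imprinted genes 6 rose (23.1%) and 1 fell, with a median of 0.04 (-0.18 rescaled, 0.10 without 4C replicates 1 to 3, where 2 rose and none fell). Xist, the RNA that silences an X chromosome in female cells, was at 0.00392, 2.22, 5.87, 3.72 and 0.954 TPM at 4C and 5.21 to 15.8 TPM (median 10.6) at 8C (1.93 ± 0.37 (SE), adjusted p = 0.000111), with 1.98 in replicates 1 to 3, 1.85 in replicates 4 and up and 1.86 without 4C replicates 1 to 3 (adjusted p = 0.00738). A single 4C library, replicate 3, lay within the 8C range. Slc38a4, an amino acid transporter imprinted through H3K27me3, was at 0.0323, 1.54, 5.78, 0.685 and 0.0268 TPM at 4C and 6.8 to 16 TPM (median 11) at 8C (2.52 ± 0.38 (SE), adjusted p = 2.59e-06; 3.11 without 4C replicates 1 to 3), and the stages did not overlap. Snrpn rose by 1.99 (0.53 without those libraries, adjusted p = 0.688). Sgce was at 0, 4.25, 0.402, 44.9 and 26.6 TPM at 4C and 23.1 to 100.5 TPM (median 41.2) at 8C, and its rise of 2.85 was 5.03 in replicates 1 to 3 and -0.17 in replicates 4 and up. Gnas rose by 2.30, lost without 4C replicate 1 (2.06), and Impact fell from 431, 561, 235, 137 and 201 TPM to 16.9 to 158 TPM (median 68.6) (-2.10), lost without 4C replicate 2 (-1.85) or 8C replicate 4 (-1.74). When 4C replicates 1 to 3 were left out, Gnas and Impact were at 1.44 and -1.38. Of 428 tested X-linked genes 48 rose (11.2%) and 33 fell (7.71%), near the 11.5 and 8.23% of all genes, and their median of 0.06 was -0.14 rescaled.

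Transcripts of the donor cell type were low at both stages. The summed TPM of 20 cumulus markers was 7306 to 9012 in the CC libraries, 112 to 330 at 4C and 387 to 634 at 8C. The marker of highest mean at both stages was Gja1, the connexin 43 gene, which the embryo also transcribes, at 151, 43.1, 233, 287 and 319 TPM at 4C and 383 to 629 TPM (median 442) at 8C. For Gja1 the log2 fold change was 1.44 ± 0.57 (SE), adjusted p = 0.0637. Inha, Fshr and Amh were listed at 0 in all libraries of both stages, as were Inhba, Areg, Ereg and Npr2 at 4C and Has2, Ptgs2, Cyp19a1, Foxl2 and Lox at 8C; Amh was also at 0 in the CC libraries. Of 10 tested genes of the wider list, 22 others being under the filter, 3 fell. Serpine2, a protease inhibitor at 3136 ± 684 (SD, n = 3) TPM in CCs, was at 31.9, 58.9, 38.8, 4.94 and 10.6 TPM at 4C and 0.287 to 18.4 TPM (median 3.33) at 8C (-2.21; -0.79 without 4C replicates 1 to 3), and Tnfaip6, of the expanded cumulus matrix, at 1.15, 8.21, 4.81, 0.128 and 0.159 TPM at 4C and at most 0.149 at 8C (-1.41; -0.16). The call of Serpine2 was lost without any of 4C replicates 1 to 3 (-1.85 to -2.07) or 8C replicate 3 (-1.83), that of Tnfaip6 without 4C replicate 2 (-0.97) or 3 (-1.14), and that of Bmpr2 (-1.14; -0.92 without 4C replicates 1 to 3) without 4C replicate 2 (-1). These genes were highest in the same 4C libraries as Ddit3, and whether the values come from donor cells was not tested. Amhr2 did not pass. For Amhr2 the log2 fold change was 0.69 ± 0.52 (SE), adjusted p = 0.383.

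**Figure D5:**
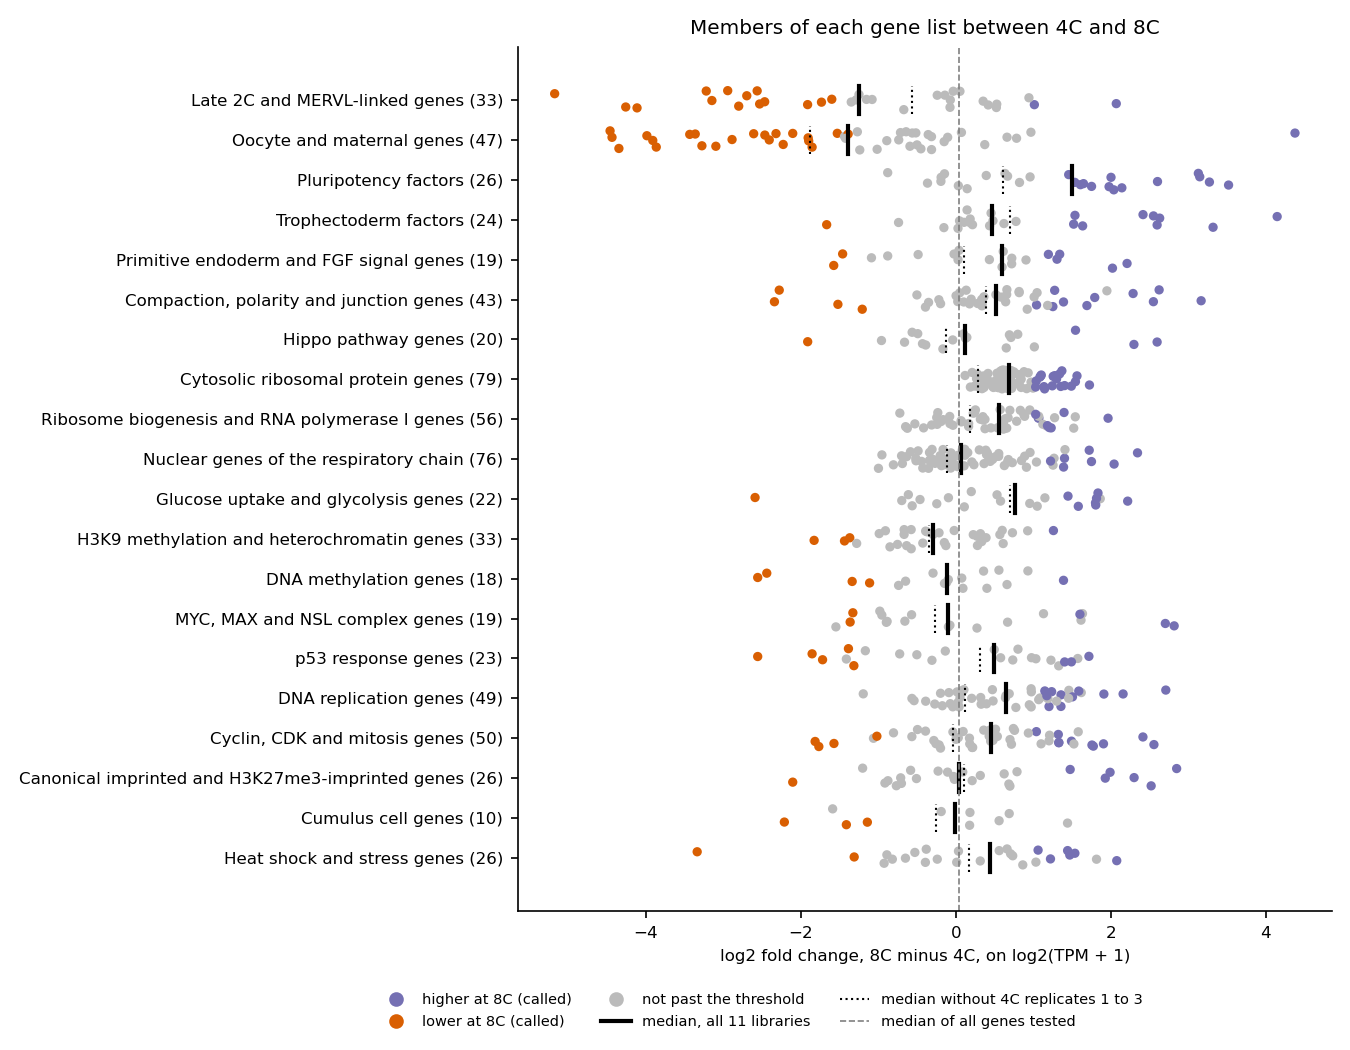
Each point is a tested member of a gene list, placed by its log2 fold change (8C minus 4C, on log2(TPM + 1)), purple where it was called higher and orange where called lower, with the number tested after each name. Thick bars mark list medians with all 11 libraries and dotted bars without 4C replicates 1 to 3; maternal and late 2C lists lie to the left in both, and pluripotency factors to the right, with medians of 1.5 and 0.61.

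Set beside the neighbouring steps, which share the 4C or 8C libraries with it, the step from 4C to 8C lay between them in calls with all libraries. Without 4C replicates 1 to 3 it had 475 calls (4%), from 2 libraries at 4C. The neighbouring steps were not refitted without those libraries, so that count cannot be ranked against theirs. From L2C to 4C 4559 genes passed (38.4%), 1404 higher (11.8%) and 3155 lower (26.6%). From 8C to morula 1450 passed (12.2%), 1037 higher (8.74%) and 413 lower (3.48%). Genes named above took different courses. Bhmt and Dppa2 had risen before, by 1.93 and 2.15 from L2C to 4C, while Pou5f1 (-1.27) and Nanog (-0.30) did not pass there. From 8C to morula Gata3 rose by a further 3.99, Pou5f1 by 2.29 and Akr1b8 by 2.59, whereas Spic, at 177 ± 119 TPM (SD, n = 6) in morula, had come down (-2.73), as had Obox6 (-2.31).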

How the data were processed

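RNA was measured by Smart-seq2 in 68 libraries, of which the 53 SCNT libraries in 9 stages entered the fit. Per the labels and methods, the authors used Cutadapt 1.16 for trimming, HISAT2 for alignment to mm10 and StringTie for quantification. The deposited TPM values are scaled so that the loci assembled in a library sum to 1000000, with annotated genes listed beside them. The authors also deposited FPKM from the same step, and read coverage. Aligned gigabases were estimated in each library as the median ratio of coverage to FPKM over the expressed rows. The count model named in the methods needs read counts, which these tables do not hold, so limma 3.58.1 in R 4.3.3 was used on log2(TPM + 1), with a trend, for 24421 symbols filtered to a mean of at least 1 TPM, and Benjamini-Hochberg adjustment. A gene was called at an adjusted p under 0.05 and at least 2-fold. Other steps ran in Python 3.11.15. The scripts were tested on simulated data.

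Named were the 12 largest rises and falls without overlap and with at least 5 TPM in the higher stage, up to 4 called and the 2 most abundant genes per list, and genes of the study's subject; 2 genes that these rules name are not reported here. Members and lists were chosen with earlier results of these data known. The labels list 5 and 6 libraries where the methods state 3 replicates per stage. 4C replicate 5 is numbered from its label. Alternatives covered pseudocounts, filters, scaling, sets of libraries and each library left out. Shared 50-base words were counted over GENCODE transcripts. They made up over 10% in 40 of the 156 named genes matched there. These included Dppa5a (38.6%), Hspa8 (38.6%), Omt2b (35.2%), Khdc3 (34.1%) and Mcrs1 (25.8%), so part of their signal could be shared.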

Additional observations from a re-analysis of the deposited data

Results flagged for a closer look

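Each of the 158 named genes that were tested, and each of 3 library measures, was checked in each stage. Dixon's test looked for 1 library far from the others, in 322 sets in all. Named genes under the filter, such as Sox2, were not checked. In 27 (8.39%) a library stood apart. The chance rate of this test, about 1 in 20, is for normally distributed values. A set in which only 1 library lists the gene is always flagged, as for Anxa8 and Abo at 0.355 and 0.193 TPM. Many of the genes were also named for their values in these libraries. The share of 8.39% therefore cannot be weighed against that rate. Values are TPM, followed by the range of the other libraries of that stage.

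4C replicate 3 stood apart for 8 genes. It was low for the maternal and 2C transcripts E330034G19Rik (14.2 against 79.7 to 131), Obox5 (3.18 against 54.5 to 122) and Tcl1 (40.7 against 174 to 257), and for Mob1b (4.87 against 21.7 to 35.6) and Dnmt1 (1.43 against 5.32 to 6.34). It was high for Cldn4 (0.743 against 0 to 0.0517), Anxa8 (0.355) and Abo (0.193), the last 2 listed at 0 in the others.

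Among the other 4C libraries, replicate 1 was high for Gm10436 (101 against 24.4 to 34.1) and low for Rlim (18.2 against 28 to 32). Replicate 2 was low for Spic (1.51 against 67.1 to 168) and high for Hk2 (15 against 1.32 to 2.99). Replicate 4 was high for Gnas (6.93 against 0.0602 to 0.896) and low for Uqcr10, at 980 where the next was 1107. Replicate 5 was high for Vgll4 (3.22 against 0 to 0.221) and Zscan4c (0.182 against 0.00519 to 0.0108).

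At 8C, replicate 1 was low for Tk1 (264 against 379 to 425), Snrpn (240 against 364 to 467) and Gnas (1.14 against 8.13 to 18.3). Replicate 2 was low for Fgfr2 (0.124 against 4.08 to 9.82) and high for Gm3143 (3.38 against 0.471 to 1.14) and Tnfaip6 (0.149, listed at 0 in the others). Replicate 4 was high for AA545190 (2.61 against 0 to 0.446) and Tcl1b2 (3.03 against 0.214 to 0.802). Replicate 5 was high for the 2C genes Zfp352 (4.78 against 0 to 0.538), Zscan4c (0.0828 against 0 to 0.0187) and Zscan4d (0.0113, listed at 0 in the others).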

How the results depend on the processing

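Of 2347 calls, 1370 were higher and 977 lower. Rescaling over annotated genes gave 840 higher and 1799 lower, and leaving out 4C replicates 1 to 3, chosen after seeing the data, gave 475 calls, 152 higher and 323 lower. Leaving out 1 library at a time gave totals from 1672 (without 4C replicate 1) to 2677 (without 4C replicate 4), with 834 to 1628 higher and 745 to 1049 lower. Blocking on the replicate number gave 1132 higher and 583 lower; deviations of same-numbered libraries correlated at -0.018 to 0.129, not all over 0.1, so the number was not taken as a pairing. Correlations were 0.0985 to 0.124 between replicates 1 and 2 of both stages, 0.0904 to 0.139 between 4C replicates 4 and 5 and 8C replicates 4 to 6, and -0.195 to -0.133 between 4C replicates 4 and 5 and 8C replicates 1 and 2, so they followed sets of numbers. The other alternatives kept the total and each direction within 1.5 times. Across 158 named genes, 66 kept their direction and side of the threshold without 4C replicates 1 to 3, which leaves 2 libraries at 4C, and 87 lost the call; with a pseudocount of 0.1, 150 kept it. The cause of the changes below was not tested.

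Some directions turned. Rescaled, Fabp3 was at -0.02, Mob1b at -0.31, Rpl41 at -0.01, Gmnn at -0.27 and Suv39h1 at -0.04, and after quantile normalization Gmnn was at -0.25. In replicates 1 to 3 alone Fabp3 was at -1.03, Cbx3 at 0.27, Pphln1 at 0.38 and Pole4 at 0.10. In replicates 4 and up alone Mob1b was at -0.48, Rpl41 at -0.03, Btg2 at 0.90, Gmnn at -0.60, Sgce at -0.17, Amhr2 at -0.24, Max at 0.07 and Mycn at 0.08. Without 4C replicates 1 to 3 Mob1b was at -0.48, Btg2 at 1.02, Gmnn at -0.49, Ccnb1 at -0.06 and Amhr2 at -0.35. With the replicate block Setdb1 was at 0.11, and with a trend on transcript length removed, also chosen after seeing the data, Setdb1 was at 0.11 and Cdx2 at -0.18. Leaving out 1 library moved Fabp3 from -0.03 to 0.89, Mob1b from -0.31 to 0.35, Pphln1 from -0.30 to 0.11, Gmnn from -0.13 to 0.39, Pole4 from -0.19 to 0.04, Setdb1 from -0.15 to 0.11 and Zscan4c from -0.05 to 0.01. Of these genes Btg2, Sgce and Mycn were called with all libraries. Depth is known only as aligned bases, so counting error could not be given for single genes, and a gene listed at 0 may be a failed estimate.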

Other observations

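The genes described here were chosen after their values were seen. Among genes called in both replicate sets whose stages did not overlap, 8 were chosen by their level at 8C from those that rose. Eif5a, a translation factor, was at 142, 133, 326, 1335 and 1043 TPM at 4C and 1350 to 4532 TPM (median 3362) at 8C. For Eif5a the log2 fold change was 2.84 ± 0.57 (SE), adjusted p = 0.000221, and 1.24 without 4C replicates 1 to 3. Cnbp, a nucleic acid binding protein, rose by 2.28, Cfl1, the actin-severing cofilin, by 1.94, Impdh2, the enzyme at the start of guanine nucleotide synthesis, by 1.82 and Stip1, a co-chaperone of HSP70 and HSP90, by 2.54. Without 4C replicates 1 to 3 these were 1.08, 0.79, 0.84 and 1.33, and none was called. Ptma, Trim43b and Gnb2l1 rose as well (1.63, 2.18 and 2.01). Trim43b and Impdh2 share 47.7 and 39.3% of their 50-base words with other genes.

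The abundant genes that fell had different values in the step before. Tex30, Fbxo36, Apip and Hrsp12 fell with little prior change, with values of -0.09, 0.28, -0.26 and -0.14 from L2C to 4C and -1.98, -2.01, -1.20 and -2.39 from 4C to 8C. By contrast the oocyte genes Omt2a, Tcl1 and Oog3 had already fallen from L2C to 4C (-5.07, -3.72 and -4.88) before falling again (-3.87, -3.36 and -3.10).

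Sfn, which encodes the adaptor 14-3-3 sigma, was at 47.2, 38.3, 52.1, 224 and 149.6 TPM at 4C and 347 to 2156 TPM (median 1214) at 8C (3.54; 2.35 without 4C replicates 1 to 3). Cd9, a tetraspanin of the egg surface, rose by 2.15 (1.26 without those libraries), and Cth, which makes cysteine downstream of homocysteine, by 2.63 (1.164). Hand1, a placental factor, was at 4.04, 6.94, 0.988, 14.8 and 13.7 TPM at 4C and 18.9 to 81.2 TPM (median 37.5) at 8C but at 0.636 ± 0.509 TPM (SD, n = 6) in TE. Rlim, the X-linked ubiquitin ligase that promotes Xist transcription, fell from 18.2, 30.5, 31.8, 32 and 28 TPM to 4.69 to 15.6 TPM (median 11.7). For Rlim the log2 fold change was -1.32 ± 0.38 (SE), adjusted p = 0.00912, and -1.44 without 4C replicates 1 to 3 (adjusted p = 0.129).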
